A study of Oryctolagus cuniculus with 4 samples.

Results

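ANKRD1 and CSRP3 are 2 of the 21139 genes counted in 4 sections of rabbit supraspinatus muscle, a muscle of the rotator cuff, and were taken by their symbols in the gene list (ANKRD1, ENSOCUG00000006901, and CSRP3, ENSOCUG00000004480). They were chosen with their levels in these sections and their relation to the myosin genes already known, so those levels and relations are given as descriptions. Spatial RNA was captured with the Visium 3′ assay, in which each printed spot under the tissue tags the polyadenylated RNA it binds with a spot barcode and a unique molecular identifier (UMI), so that a count is a number of captured molecules. The question was how muscle changes across its area after its tendon is cut (tenotomy, a model of a rotator cuff tear), and whether tissue stored frozen for 6 years can still be used.

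All rabbits were female, skeletally mature New Zealand White animals without any transgene, and each condition is 1 section from the posterior distal muscle belly. The fresh healthy muscle was snap frozen and not stored, the stored healthy muscle was kept for 6 years, and the tenotomy muscles were taken 2 weeks and 16 weeks after the tendon was cut and were also kept for 6 years. By their labels, the stored healthy muscle and the 16-week muscle appear to come from opposite sides of 1 rabbit (14R and 14L, read as an animal number and a side, which the labels do not spell out). The stored control would then be the other shoulder of an operated animal. The 2-week and the fresh muscle carry other numbers. Storage therefore cannot be told apart from animal in the fresh against stored comparison, nor time from animal between 2 and 16 weeks. Tenotomy cannot be told apart from animal between the 2-week and the stored healthy section. Both tenotomy labels end in L and both healthy labels in R, so side, if read so, cannot be told apart from tenotomy. With 1 section per condition there is no replicate and no test. Intervals are 95%, exact and for counting error only, since neither rabbits nor sections were repeated.

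ANKRD1 encodes the cardiac ankyrin repeat protein, which binds titin at the I-band of the sarcomere, is also found in nuclei, and is known as a gene induced when heart or skeletal muscle is stretched, injured or denervated. CSRP3 encodes the muscle LIM protein, a protein of 2 LIM domains that sits at the Z-disc, is known from heart muscle and from slow skeletal fibers, and is counted among the sensors of mechanical load. Adult fibers are named by their myosin heavy chain: MYH7 marks slow fibers, MYH1 and MYH4 mark fast fibers, and MYH8 is the neonatal form that returns in regenerating fibers.

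The fresh section had 1950 spots under tissue, the stored healthy section 2440, the 2-week section 854 and the 16-week section 1726. Total UMIs lay between 4079313 and 12536450 per section, and median UMIs per spot between 2090 at 16 weeks and 5195 in the stored healthy section. Mitochondrial genes took 49.3% and 49.2% of the UMIs in fresh and stored healthy muscle, against 33.8% and 34.6% at 2 and 16 weeks, which moves every level that is set against total UMIs. Of the MYH1, MYH4 and MYH7 UMIs, MYH7 made up 14.4% in fresh and 55.4% in stored healthy muscle, 13.2% at 2 weeks and 67.7% at 16 weeks, so the sections differed in fiber type before either gene is considered. The skeletal muscle markers were present in all 4 sections (6 of the 7 markers with a feature, with TCAP at 0 in every section), and none of the 6 listed heart muscle markers has a feature.

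ANKRD1 was highest in fresh healthy muscle and lowest 16 weeks after tenotomy. Its level was 22.3 UMIs per 10000 UMIs in the fresh section (interval 22.0 to 22.7, 15684 UMIs), 5.92 in the stored healthy section (5.79 to 6.06, 7426 UMIs), 7.01 at 2 weeks (6.76 to 7.28, 2861 UMIs) and 1.47 at 16 weeks (1.36 to 1.58, 696 UMIs). The counting intervals of the 4 sections do not overlap, but the stored healthy and the 2-week section lay close together and their order depended on the scale. At least 1 UMI of ANKRD1 was found in 89.5% (88.0 to 90.8%) of the spots of fresh muscle and 88.0% (86.7 to 89.3%) of those of stored healthy muscle. The share was 81.1% (78.4 to 83.7%) at 2 weeks and 18.8% (17 to 20.8%) at 16 weeks. In most spots of 3 sections, then, at least 1 ANKRD1 molecule was captured, and at 16 weeks in a minority of spots.

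Part of such shares follows from depth, since a spot with more UMIs has more chances to hold any gene. With each spot thinned to 1000 UMIs, ANKRD1 was left in 78.0% of fresh, 44.4% of stored healthy, 44.8% of 2-week and 8.59% of 16-week spots (spots under 1000 UMIs left out: 266, 93, 53 and 352). At this common depth the fresh section stood apart from the other healthy section, while the stored healthy and the 2-week shares had overlapping intervals (42.3 to 46.4% and 41.3 to 48.3%).

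CSRP3 took another order, with the stored healthy and the 16-week section high and the fresh and the 2-week section low. Its level was 1.02 UMIs per 10000 in the fresh section (0.947 to 1.10, 716 UMIs), 3.49 in the stored healthy section (3.39 to 3.59, 4373 UMIs), 0.767 at 2 weeks (0.685 to 0.857, 313 UMIs) and 3.90 at 16 weeks (3.72 to 4.08, 1848 UMIs). At least 1 UMI of CSRP3 was found in 23.4% (21.6 to 25.4%) of the spots of fresh muscle and 63.1% (61.1 to 65.0%) of those of stored healthy muscle. The share was 17% (14.5 to 19.7%) at 2 weeks and 44.6% (42.2 to 47.0%) at 16 weeks. On this scale the order of the sections for CSRP3 was that of their MYH7 share, with 16 weeks first and 2 weeks last, though the 16-week and stored healthy sections changed places when mitochondrial genes were left out, and ANKRD1 did not follow that order. After thinning, CSRP3 was left in 7.84% of fresh, 24.3% of stored healthy, 4.24% of 2-week and 26.5% of 16-week spots, and the intervals of the stored healthy (22.6 to 26.1%) and the 16-week section (24.2 to 28.9%) overlapped. The levels of both genes are shown side by side in the plot per section.

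**Figure D1:**
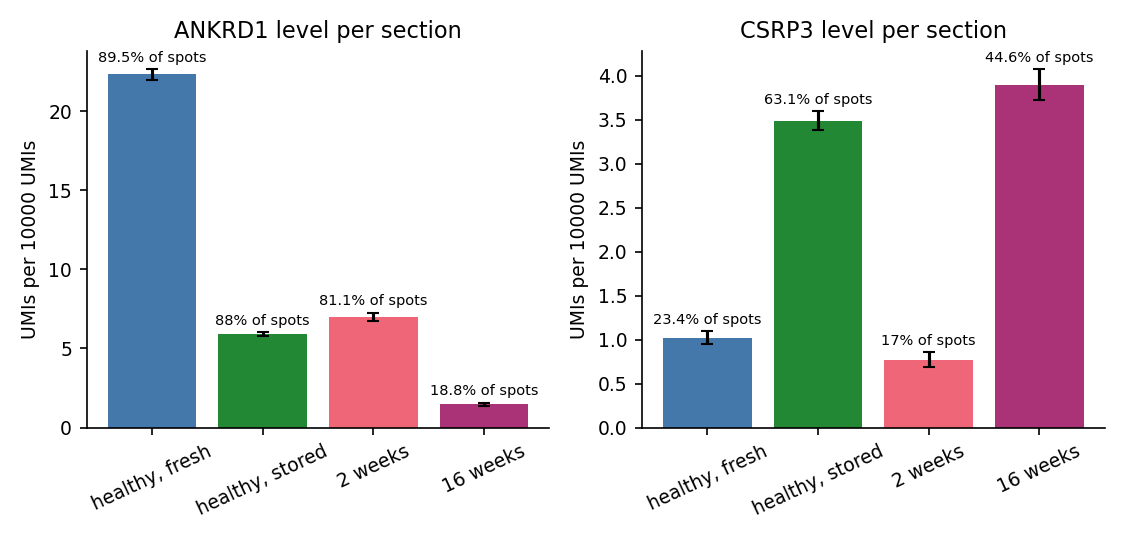
UMIs per 10000 UMIs of ANKRD1 (left) and CSRP3 (right) in each of the 4 sections, with exact 95% Poisson intervals as error bars and the share of spots with at least 1 UMI above each bar. ANKRD1 runs from 22.3 in the fresh section to 1.47 at 16 weeks, while CSRP3 is at 3.49 and 3.90 in the stored healthy and 16-week sections and at 1.02 and 0.767 in the others.

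Between sections, ratios were taken relative to total UMIs on a log2 scale, and a gene was counted as called when it differed at least 2-fold. Against the stored healthy section, ANKRD1 was 3.77-fold higher in the fresh section (log2 1.92, interval 1.88 to 1.96), where 11% of 5756 genes were at least 2-fold higher, and it stood at rank 83 from the highest. At 16 weeks ANKRD1 was 4.03-fold lower (log2 -2.01, interval -2.13 to -1.90), where 2.36% of 6025 genes were at least 2-fold lower, and it stood at rank 49 from the lowest. Many genes were higher at 16 weeks (46.9% at least 2-fold, with a median log2 ratio of 0.93 over all genes), so that the ANKRD1 ratio lay 2.95 below that of the median gene. At 2 weeks, where 27.6% of 5686 genes were at least 2-fold higher, ANKRD1 was not among them. Its ratio was log2 0.24 (0.18 to 0.31) relative to total UMIs, and turned to -0.14 without mitochondrial genes and to -0.39 relative to the median gene, which itself had a log2 ratio of 0.63. All 3 of these ratios share the stored healthy section.

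CSRP3 was 4.54-fold lower at 2 weeks than in the stored healthy section (log2 -2.18, interval -2.35 to -2.02), where 2.11% of 5686 genes were at least 2-fold lower, and it stood at rank 33 from the lowest. In the fresh section CSRP3 was 3.42-fold lower than in the stored healthy section (log2 -1.77, interval -1.89 to -1.66), where 9.36% of genes were at least 2-fold lower. At 16 weeks its ratio was log2 0.16 (0.08 to 0.24) relative to total UMIs, and turned to -0.21 without mitochondrial genes and to -0.78 relative to the median gene. Between the tenotomy sections the genes moved in opposite directions from 2 to 16 weeks. ANKRD1 was 4.78-fold lower at 16 weeks (log2 -2.26, where 5.26% of 5534 genes were at least 2-fold lower) and CSRP3 5.07-fold higher (log2 2.34, where 18.1% were at least 2-fold higher). A spot is a region that can hold several cells, so fewer expressing cells and less RNA per cell cannot be told apart in these ratios.

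Within each section ANKRD1 leaned to fast spots and CSRP3 to slow spots. The slow share of a spot was MYH7 divided by MYH1, MYH4 and MYH7 together, in spots with at least 10 such UMIs, and spots at or above 0.75 were called slow and at or below 0.25 fast. MYH2, another fast myosin, has no feature in the gene list, and the MYH genes are near-identical paralogs whose reads may be split with uncertainty. There were 14 slow and 1429 fast spots in the fresh section, 701 and 590 in the stored healthy section, 12 and 707 at 2 weeks, and 633 and 79 at 16 weeks. The slow groups of the fresh and the 2-week section are therefore small.

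CSRP3 was higher in slow than in fast spots in 4 of 4 sections. In the stored healthy section it was at 6.43 UMIs per 10000 in slow and 1.40 in fast spots (log2 2.20, interval 2.05 to 2.35), where 14.3% of 4866 genes were at least 2-fold higher, and at 16 weeks at 5.49 against 1.25 (log2 2.13, 1.65 to 2.66, where 9.08% of 2444 genes were). The fresh section had 3.09 against 0.786 (log2 1.97, 1.25 to 2.62, where 4.96% of 665 genes were at least 2-fold higher). At 2 weeks the levels were 6.00 and 0.399 (log2 3.91, 3.35 to 4.44), where 5.45% of 826 genes were at least 2-fold higher, but CSRP3 was not among the genes counted, since fewer than 5 of its 38 and 133 UMIs would be expected in the 12 slow spots at an even level. Of the 38 UMIs in slow spots at 2 weeks, 2 spots held 14 and 12. The gradient was stepwise. In stored healthy muscle CSRP3 stood at 1.40, 1.93, 3.02 and 6.43 from the lowest to the highest of 4 equal slow-share ranges. At 16 weeks it stood at 1.25, 2.26, 3.13 and 5.49.

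ANKRD1 was lower in slow than in fast spots in 4 of 4 sections. The levels in slow and fast spots were 7.57 and 24.9 in the fresh section (log2 -1.72, interval -2.15 to -1.31, where 7.97% of genes were at least 2-fold lower) and 1.39 and 4.11 at 16 weeks (log2 -1.56, -1.88 to -1.24, where 2.66% were). They were 3.63 and 7.55 at 2 weeks (log2 -1.06, -1.72 to -0.47, where 13% of 826 genes were at least 2-fold lower). At 16 weeks few spots carried much of both levels. Of the 115 ANKRD1 UMIs in its fast spots, 2 spots held 24 and 20, and of the 315 in its slow spots, 1 spot held 71. In the stored healthy section, with the largest slow group, the levels were closest, at 4.37 and 6.87 (log2 -0.65, -0.75 to -0.56, short of the 2-fold that 4.19% of genes passed downward), and the 3 lower ranges of the slow share did not differ there beyond counting error (6.87, 6.61 and 6.56). The fall in that section lay in the highest range of the slow share.

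**Figure D2:**
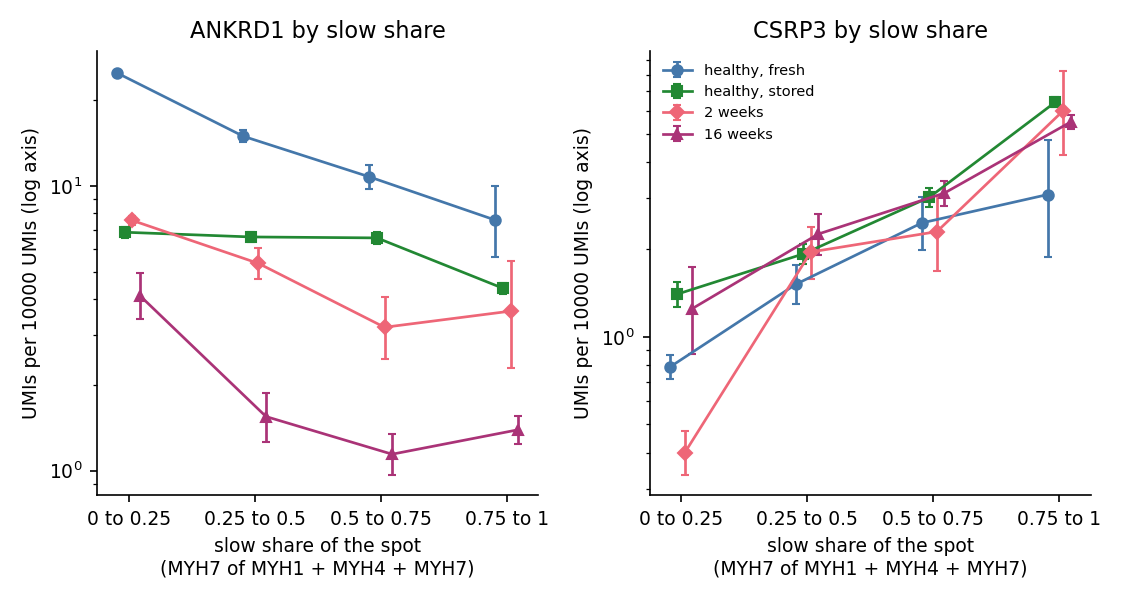
UMIs per 10000 UMIs (log axis) of ANKRD1 (left) and CSRP3 (right) in spots grouped by slow share (MYH7 of MYH1, MYH4 and MYH7), 1 line per section, with exact 95% Poisson intervals. In each section ANKRD1 is lower and CSRP3 higher at the slow end than at the fast end.

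Set side by side at a like slow share, CSRP3 differed less between sections in slow spots than in fast spots, with the fresh section apart. In slow spots it was at 6.43 in the stored healthy section, 6.00 at 2 weeks and 5.49 at 16 weeks, with the fresh section at 3.09. The 2-week value rests on few spots, since 2 of the 12 slow spots, with 14 and 12 UMIs, held most of the 38 CSRP3 UMIs. In fast spots it was at 0.399 at 2 weeks, against 1.40 in stored healthy muscle, 1.25 at 16 weeks and 0.786 in fresh muscle. The fast spots at 2 weeks also had a lower mean slow share (8.41%) than those of the stored healthy section (15.2%), so narrower groups were compared, a choice made after the values were seen. Between slow shares of 0.1 and 0.25, where the mean slow shares were 15.5% at 2 weeks and 17.4% in the stored healthy section, CSRP3 was at 0.390 (0.285 to 0.522, 247 spots) at 2 weeks and 1.48 (1.33 to 1.64, 486 spots) in stored healthy muscle. It was at 1.01 (0.870 to 1.17, 480 spots) in fresh muscle and 1.23 (0.830 to 1.76, 70 spots) at 16 weeks. The low level of CSRP3 in fast spots at 2 weeks was thus also seen at a matched slow share.

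With the slow-share groups weighted as in the stored healthy section, the CSRP3 ratio to that section moved from log2 -2.18 to -0.22 at 2 weeks, from -1.77 to -0.78 in the fresh section and from 0.16 to -0.10 at 16 weeks. This weighting puts much of the 2-week value on its 12 slow spots, of which 2 held most of the CSRP3 UMIs. It also leaves the unlike slow shares within each group as they were. ANKRD1 kept larger differences under the same weighting, with log2 1.25 in the fresh section and -1.55 at 16 weeks, while its 2-week ratio turned from 0.24 to -0.27. In spots between slow shares of 0.1 and 0.25, ANKRD1 was at 21.6 UMIs per 10000 in fresh muscle, 6.81 in stored healthy muscle, 5.53 at 2 weeks and 2.91 at 16 weeks. The order of the sections with fresh first and 16 weeks last was thus also seen in this range, where 1 spot held 24 of the 71 UMIs at 16 weeks. It was not seen in the ranges below, which hold few 16-week spots. From 0.05 to 0.1, ANKRD1 was at 11.3 at 16 weeks (7 spots), 7.28 in stored healthy muscle and 7.52 at 2 weeks. At 0.05 or less it was at 16.2 at 16 weeks (2 spots), 6.62 in stored healthy muscle and 9.79 at 2 weeks.

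MYH4, a fast myosin that was nearly limited to the 2-week section here (39.9 UMIs per 10000, against at most 0.265 in the other sections), did not set ANKRD1 apart. The fast spots at 2 weeks were ranked by the MYH4 part of their MYH1 and MYH4 UMIs and cut into 3 equal groups. ANKRD1 was at 7.96, 7.53 and 7.15 from the lowest to the highest MYH4. CSRP3 was at 0.509, 0.356 and 0.328, with overlapping intervals between neighboring groups.

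ANKRD1 rose with neonatal myosin after tenotomy and, less steeply, in stored healthy muscle. At 2 weeks it was at 5.71 UMIs per 10000 in the 700 spots without MYH8, 6.10 in the 63 spots with 1 MYH8 UMI, 10.6 in the 51 spots with 2 to 4 and 14.2 in the 40 spots with 5 or more. At 16 weeks the same classes stood at 1.11 (1636 spots), 2.76 (65 spots), 5.78 (18 spots) and 24.9 (7 spots). In stored healthy muscle they stood at 5.78 (2004 spots), 6.19 (314 spots), 6.53 (95 spots) and 9.26 (27 spots). The 7 spots richest in MYH8 at 16 weeks stood at the level of fresh healthy muscle (22.3), but 71 of their 102 ANKRD1 UMIs came from 1 spot. Depth rose with the MYH8 class too, from a median of 4348.5 to 9377.5 UMIs per spot at 2 weeks and from 2009.5 to 5702 at 16 weeks.

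Spots with at least 2 MYH8 UMIs were set against spots without any. ANKRD1 was 2.23-fold higher in them at 2 weeks (12.7 against 5.71, log2 1.16, interval 1.04 to 1.27), where 2.78% of 3633 genes were at least 2-fold higher, and it stood at rank 55 from the highest. At 16 weeks it was 11.6-fold higher (12.9 against 1.11, log2 3.53, interval 3.25 to 3.8), where 11.5% of 1430 genes were, and it stood at rank 2. These 25 spots held 142 of the 696 ANKRD1 UMIs of the section, and 1 of them held 71, so that without it the ratio was log2 2.70 (2.32 to 3.06). In healthy muscle the ratio was smaller, log2 0.33 (0.20 to 0.46) over 122 stored spots and 0.52 (0.19 to 0.82) over only 6 fresh spots. The median gene was at 0.19 in the stored section, where ANKRD1 stood only at rank 1083 of 2934 from the highest. In the fresh section the median gene was at 0.06 and ANKRD1 at rank 70 of 364.

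The fiber type of the MYH8 spots differed between the tenotomy sections, as did that of all their spots. Fast spots made up 82.8% of the whole 2-week section. In the whole 16-week section 36.7% of spots were slow and 4.58% fast. At 2 weeks 85 of the 91 MYH8 spots were fast, and within fast spots ANKRD1 was at 12.9 with MYH8 and 6.21 without (log2 1.06, interval 0.93 to 1.18). At 16 weeks 18 of the 25 were slow and none was fast. Within slow spots ANKRD1 was at 17.6 with MYH8 and 0.770 without (log2 4.51, interval 4.17 to 4.85). Of the 134 ANKRD1 UMIs in these 18 spots, 71 came from 1 spot. Among the spots without MYH8 at 16 weeks, ANKRD1 was at 0.770 in slow and 3.87 in fast spots (log2 -2.33). Of the 98 ANKRD1 UMIs in these fast spots, 2 spots held 24 and 20. Within the slow spots of stored healthy muscle ANKRD1 was at 6.64 with MYH8 and 4.11 without (log2 0.69, interval 0.48 to 0.90). Within its fast spots the levels were 8.26 and 6.74 (log2 0.29, 0.01 to 0.56).

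For CSRP3 the ratio over all spots of the same groups was log2 0.32 (-0.10 to 0.71) at 2 weeks and 0.31 (-0.11 to 0.70) at 16 weeks, intervals that reach across 0, and 0.54 (0.38 to 0.70) in the stored healthy section. With MYH8 spots set at 5 UMIs or more it was 0.62 (0.15 to 1.07) at 2 weeks and 0.65 (0.02 to 1.22) at 16 weeks, and without the leading CSRP3 spot, an alternative added after seeing the data, 0.51 (0.09 to 0.92) at 2 weeks. Within the fast spots at 2 weeks CSRP3 was at 0.694 with MYH8 and 0.274 without (log2 1.34, interval 0.76 to 1.91, on 46 and 65 UMIs), beside 1.06 for ANKRD1 in the same spots. Within the slow spots at 16 weeks its levels were 5.77 and 5.45 (log2 0.08, -0.39 to 0.51). In the fresh section only 10 CSRP3 UMIs fell in the 6 MYH8 spots, 9 of them in 1 spot, and the ratio of log2 1.86 there rests on that spot.

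**Figure D3:**
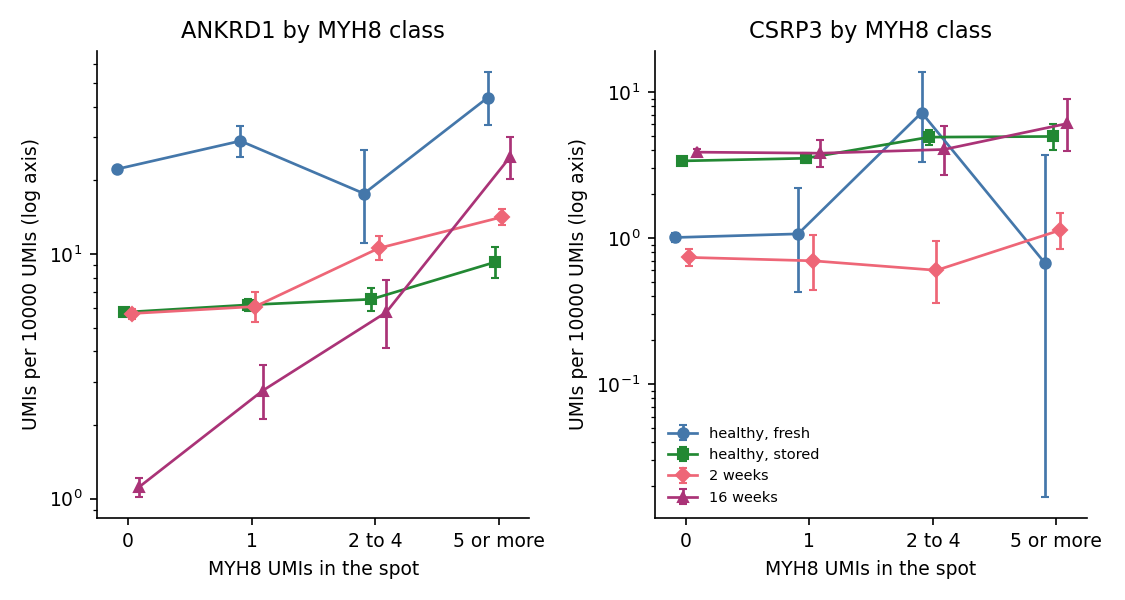
UMIs per 10000 UMIs (log axis) of ANKRD1 (left) and CSRP3 (right) in spots with 0, 1, 2 to 4 and 5 or more MYH8 UMIs, 1 line per section, with exact 95% Poisson intervals. ANKRD1 climbs from 1.11 to 24.9 at 16 weeks and from 5.71 to 14.2 at 2 weeks, and the last 2 points of the fresh section stand on 4 and 2 spots.

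The spread of the members over spots differed between sections. In fresh muscle ANKRD1 had a median of 5 UMIs per spot (quartiles 2 and 10), at least 5 UMIs in 54.9% of spots and a highest spot of 107. In the stored healthy section the median was 3 and the highest spot had 18, and the top 10% of spots by ANKRD1 count held 27.6% of its UMIs. The 2-week section had a median of 2 but a highest spot of 71, and its top 10% of spots held 41.9%. At 16 weeks the median was 0, the highest spot also had 71, and the top 10% of spots held 78.2% of the ANKRD1 UMIs with 16.8% of all UMIs. Such shares rise as the count per spot falls, so the variance over the mean of the UMIs per spot is given too. This value is near 1 at any level when spots of equal depth differ by counting error only. Where spots differ further or in depth, it grows with the mean count, so it does not rank sections of unlike level. The variance over the mean was 11.8 in fresh muscle, 2.10 in stored healthy muscle, 8.76 at 2 weeks and 11.6 at 16 weeks. At 16 weeks 1 spot held 10.2% of the UMIs.

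The leading ANKRD1 spots by count at 2 weeks had 71, 57, 49, 48 and 47 UMIs, and 4 of these 5 spots also held MYH8 (46, 151, 24 and 2 UMIs). These 4 spots had 16661 to 30187 total UMIs, against a section median of 4588, and a deeper spot has more chances to hold MYH8. At least 1 MYH8 UMI was found in 1.28% of fresh, 17.9% of stored healthy, 18.0% of 2-week and 5.21% of 16-week spots. At 16 weeks the leading spot, with 71 ANKRD1 UMIs, held 37 MYH8, 146 ACTC1 and 22 MYL4 UMIs at a slow share of 95.9% (ACTC1 and MYL4 encode the cardiac actin and an embryonic light chain of developing muscle). The next, with 24 and 20 ANKRD1 UMIs, held no MYH8 and were fast spots, with slow shares of 13.9% and 6.70%. In the fresh section none of the 5 leading spots, with 68 to 107 ANKRD1 UMIs, held MYH8. In the stored healthy section all 5 leading spots, with 17 or 18 ANKRD1 UMIs, held MYH8 (8, 9, 3, 1 and 1 UMIs). They had 5285 to 12610 total UMIs, against a section median of 5195. Leading ANKRD1 spots with and without MYH8 were thus both present at 2 and at 16 weeks.

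For CSRP3 the variance over the mean was 2.14 in fresh muscle, 4.03 in stored healthy muscle, 7.77 at 2 weeks and 3.35 at 16 weeks. At 2 weeks the 5 leading spots had 29, 25, 14, 14 and 12 of the 313 UMIs. Those of 29 and 25 lay at slow shares of 44.9% and 35.0%, so they were of mixed fiber type. A spot of 14 and the spot of 12 were slow spots, at slow shares of 81.8% and 78.7%. In the stored healthy section the 5 leading spots had 18 to 43 UMIs and slow shares of 98.0% to 99.4%.

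**Figure D4:**
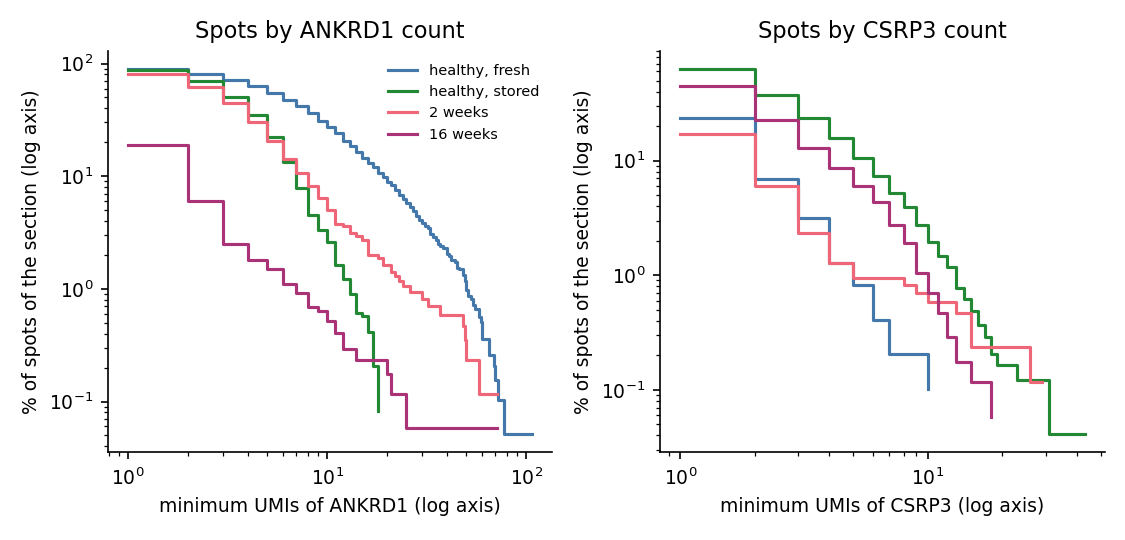
Share of the spots of each section (log axis) that hold at least the number of UMIs on the x axis (log axis), for ANKRD1 (left) and CSRP3 (right). The ANKRD1 curve of the stored healthy section ends at 18 UMIs, while those of the 2-week and the 16-week section reach 71 and that of the fresh section 107.

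The 2 genes were not alike across spots. Spearman's rho between them over spots with at least 500 UMIs was 0.00 in fresh muscle (1784 spots), -0.09 in stored healthy muscle (2380), 0.08 at 2 weeks (823) and 0.04 at 16 weeks (1592). Spots of a section share its library and differ in depth, and CSRP3 per UMI itself had a rho of 0.19 to 0.40 with the total UMIs of the spot, so these values are descriptions. CSRP3 was at 3.43 UMIs per 10000 among stored healthy spots with ANKRD1 and 4.14 in those without (log2 -0.27, interval -0.42 to -0.13), and at 3.48 and 4.05 at 16 weeks (log2 -0.22, -0.38 to -0.07). At 2 weeks it was higher in spots with ANKRD1, at 0.811 against 0.437 (log2 0.89, interval 0.25 to 1.61), with 18 spots holding CSRP3 alone. The 5 leading CSRP3 spots of that section, with 29, 25, 14, 14 and 12 of its 313 UMIs, all held ANKRD1. The 2-week ratio thus rests in part on them and was not taken without them. The fresh section gave 1.02 and 1.11 (log2 -0.12, -0.75 to 0.58).

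Over the same spots, the rho of CSRP3 with MYH7 was 0.13 in fresh muscle, 0.43 in stored healthy muscle, 0.13 at 2 weeks and 0.41 at 16 weeks, and with MYH1 -0.21, -0.47, -0.14 and -0.04. That of ANKRD1 with MYH1 was 0.30, 0.19, 0.28 and 0.17, and with MYH7 -0.17, -0.23, -0.21 and 0.07. With MYH8, ANKRD1 had 0.04 and 0.05 in the healthy sections, 0.24 at 2 weeks and 0.13 at 16 weeks. CSRP3 had 0.00 and 0.04 with MYH8 in fresh and stored healthy muscle, 0.22 at 2 weeks and 0.06 at 16 weeks. The 2-week values of the 2 genes with MYH8 were thus close. The signs for MYH7 and MYH1 were opposite for the 2 genes in the 3 sections other than 16 weeks, where ANKRD1 and MYH7 had a weak positive value. In the 16-week spots that also had at least 10 UMIs of MYH1, MYH4 and MYH7, that value was 0.01. There the rho of CSRP3 with MYH1 was -0.16.

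Among 690 genes with at least 200 UMIs in every section, those most like ANKRD1 across spots by the mean rho over the 4 sections were TPM1 (0.25), MYL1 (0.24), MYH1 (0.24), ACTN3 (0.18) and HSPB8 (0.16). TPM1 encodes a tropomyosin of the thin filament, MYL1 a fast light chain, ACTN3 the alpha-actinin of fast fibers, and HSPB8 a small heat shock protein of the Z-disc chaperone complex. HSPB8 was uneven, with a rho of 0.38 in fresh and 0.01 in stored healthy muscle. Those most like CSRP3 were CRYAB (0.32), MYL2 (0.30), MYH7 (0.28), C1orf43 (0.26) and TNNC1 (0.26), where CRYAB encodes the small heat shock protein alphaB-crystallin and MYL2 and TNNC1 a light chain and the troponin C of slow and heart muscle.

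ANKRD1 and its relatives did not share a pattern between sections. ANKRD2, the titin-binding ankyrin repeat protein of slow fibers, had log2 ratios to the stored healthy section of -0.07 in the fresh section, -1.42 at 2 weeks and -0.27 at 16 weeks, and ANKRD23, also known as the diabetes-related ankyrin repeat protein, 0.00, 0.73 and -0.72. ANKRD1 had 1.92, 0.24 and -2.01 in the same order. The list of this family with its titin-linked partners had 10 other measured genes. In the fresh section 0 of them were at least 2-fold higher and 0 lower (11% and 9.36% of all genes). At 2 weeks 4 were higher and 1 lower (27.6% and 2.11% of all genes). At 16 weeks 2 were higher and 0 lower (46.9% and 2.36% of all genes). The 2 higher at 16 weeks were the muscle ubiquitin ligases TRIM63 (log2 2.41) and FBXO32 (2.09).

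Of the muscle LIM and Z-disc genes other than CSRP3, 24 were measured. In the fresh section 6 were at least 2-fold higher than in the stored healthy section and 1 was lower (11% and 9.36% of all genes), with a list median of 0.55 (CSRP3 included) against 0.11 over all genes. The 6 were XIRP1 (log2 2.81), HSPB8 (2.58), FLNC (2.48), PDLIM3 (1.57), HSPB1 (1.52) and ACTN3 (1.48), beside ANKRD1 at 1.92. XIRP1 encodes a Xin repeat protein found at sites of fiber damage, FLNC the filamin of the Z-disc and HSPB1 a small heat shock protein. The 1 lower was MYOZ2 (-1.24), the calsarcin of slow and heart muscle, which was also lower at 2 weeks (-1.36) like CSRP3. At 16 weeks 0 of the 24 were at least 2-fold higher or lower, where 46.9% of all genes were higher and 2.36% lower.

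ANKRD1 is also a known target of YAP and TAZ, co-activators that bind TEAD factors when cells are stretched or spread, and most other targets and factors of that list were not lower at 16 weeks. Of 10 measured genes, 6 were at least 2-fold higher than in the stored healthy section, beside 46.9% of all genes, and 0 were lower, with a median of 1.73 against 0.93 over all genes. WWTR1, which encodes TAZ, was at log2 3.38, AMOTL2 at 2.70, CCN1 at 2.10 and CCN2 at 1.96, beside ANKRD1 at -2.01. In the fresh section, with the highest ANKRD1, 0 of the 10 were at least 2-fold higher or lower (11% and 9.36% of all genes). Fibroblast markers as a list were at 77.2 UMIs per 10000 at 16 weeks and 39.3 in the stored healthy section, with 7 of 7 detected in both, and their part in the YAP and TAZ values was not tested.

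**Figure D5:**
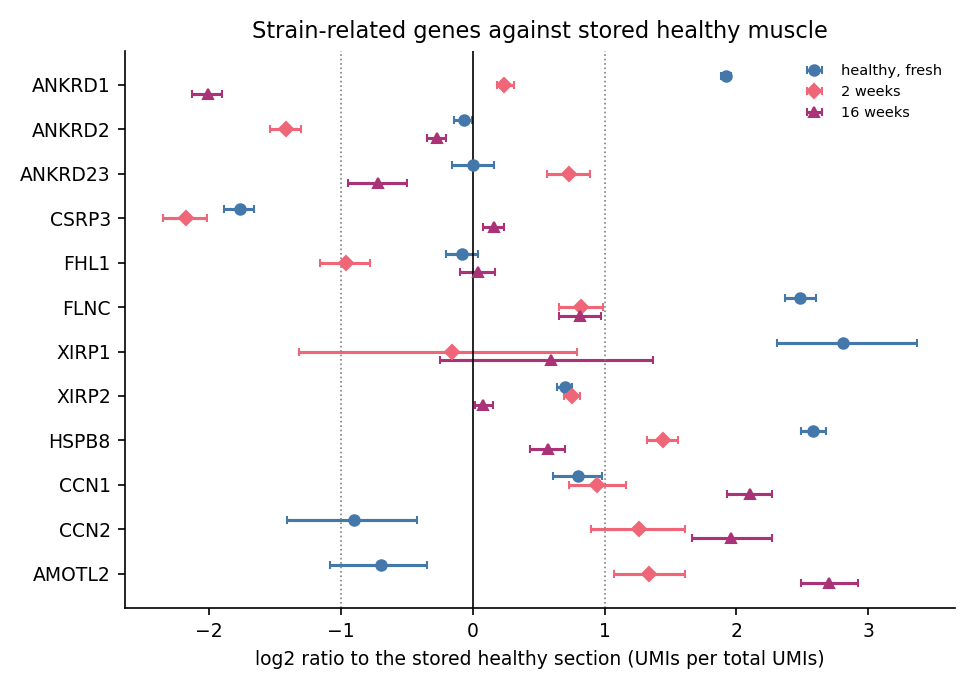
Log2 ratio to the stored healthy section, relative to total UMIs, of ANKRD1, CSRP3 and 10 related genes in the fresh, 2-week and 16-week sections, with exact 95% counting intervals and dotted lines at 2-fold. ANKRD1 stands at 1.92, 0.24 and -2.01, while CCN1, CCN2 and AMOTL2 have their highest ratios at 16 weeks and FLNC, XIRP1 and HSPB8 in the fresh section (the median gene is at 0.11, 0.63 and 0.93).

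Slow fiber genes were set beside CSRP3, which was higher in slow spots. In the fresh section 7 of 10 were at least 2-fold lower than in the stored healthy section, where 9.36% of all genes were (list median -1.36), among them MYL2 (log2 -2.12) and MYH7 (-1.61), beside CSRP3 at -1.77. At 2 weeks 2 of 10 were, beside 2.11% of all genes, MYL2 at -1.94 and MYH7B at -1.32, beside CSRP3 at -2.18, while MYH7 was at -0.41 and TNNI1, the slow troponin I, was higher (1.26). From 2 to 16 weeks 6 of the 10 were at least 2-fold higher, beside 18.1% of all genes, and 0 were lower; CSRP3 was higher too. The 2-week ratio of CSRP3 was thus larger in size than that of MYH7.

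The levels of both members differed between spots rich in markers of other cell types and the rest in several sections. In the 10% of 16-week spots richest in fibroblast markers, ANKRD1 was at 4.38 UMIs per 10000, against 1.29 in the rest (log2 1.76, interval 1.46 to 2.05). Across the 1592 spots of that section, however, the rho of ANKRD1 with these markers was -0.08, so ANKRD1 did not rise with them from spot to spot. In the 3 other sections the ratio lay between -0.17 and 0.07. CSRP3 was higher in the same kind of spots in the stored healthy section (6.60 against 3.12, log2 1.08), but lower at 2 weeks (0.231 against 0.816, log2 -1.82) and at 16 weeks (1.87 against 4.02, log2 -1.11). In the 10% of spots richest in adipocyte markers, ANKRD1 was lower in 4 of 4 sections, from log2 -0.24 in the stored healthy section to -1.51 at 16 weeks. LPL alone held most UMIs of these markers, 2415 of 2432 in fresh and 3695 of 3719 in stored healthy muscle. It held 2525 of 2554 at 2 weeks and 5954 of 6340 at 16 weeks, so these were mainly spots rich in LPL. The part of other cell types in the members' levels was not tested.

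The ANKRD1 level of the 16-week section also differed by place. A barcode marks the same place on each capture area, so spots could be grouped by which sections covered that place. At the 124 places under tissue in the fresh and 16-week sections alone, ANKRD1 was at 7.14 UMIs per 10000 at 16 weeks (6.22 to 8.17), which made 213 of its 696 UMIs, so that most lay elsewhere, with MYH8 at 3.99 and CSRP3 at 5.17. The leading spot, with 71 ANKRD1 and 37 MYH8 UMIs, lay in this group and held 71 of the 213. In the 7 other groups of places of that section ANKRD1 lay between 0.352 and 1.52. The 34 places covered in all but the fresh section carried the highest ANKRD1 at 2 weeks (12.3, 11.1 to 13.7) along with MYH8 at 10.9. Both groups were singled out after the values were seen. The fresh section differed by place too, with ANKRD1 from 7.67 (32 places) to 29.8 (709 places) over its groups of places. The slow shares of these 2 groups were 27.1% and 13.3%. The fresh group with the lowest slow share, 9.85% (124 places), had ANKRD1 at 16.7. The part of fiber type in these differences by place was not tested.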

How the data were processed

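Spatial RNA was measured in 4 sections, 1 per condition. The authors aligned images by hand in Loupe Browser, used Space Ranger 1.2.0 with the OryCun2.0 genome and Ensembl annotation to count UMIs, and deposited the raw counts of spots under tissue without normalization. Position lists and barcodes were deposited beside them and carry no counts. ANKRD1 and CSRP3, the gene lists, groups and limits were chosen with earlier results of these data known. All 6970 spots were kept, and the mitochondrial genes were the last 37 of the gene list. Levels are UMIs per 10000 UMIs, so a change in other abundant RNA moves them. Intervals are exact (Poisson for levels, Clopper-Pearson for shares, conditional binomial for ratios) at 95% and cover counting error only. Section ratios had 0.5 UMI added, and background shares are over genes with at least 20 UMIs in a pair of sections or, between spot groups, at least 5 expected UMIs in the smaller group (set after seeing the data). Spots were thinned to 1000 UMIs without replacement. No p-value was computed and no doublet caller run. The genes named were the members, their myosin partners, the 5 most alike genes and fixed lists, from which examples at least 2-fold changed or of the same family were taken after their values were seen. Barcodes and positions occurred in equal numbers in 15 of 15 combinations of sections (2931 in all, 512 in all 4 sections), so shared barcodes are shared places, not shared cells. Alternatives changed the scaling, thinning, leading spots and class limits. Calculations used scipy 1.17.1 and numpy 2.4.6 with pandas 2.3.3 under Python 3.11.15, plots used matplotlib 3.10.9, and scripts were tested on simulated data.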

Additional observations from a re-analysis of the deposited data

Results flagged for a closer look

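The relation between the members across spots pointed in opposite directions in different sections. CSRP3 was higher in spots with ANKRD1 than in spots without at 2 weeks after tenotomy (log2 0.89), and lower in such spots in the stored healthy section (log2 -0.27) and at 16 weeks (log2 -0.22). The 5 leading CSRP3 spots at 2 weeks, with 29, 25, 14, 14 and 12 of its 313 UMIs, all held ANKRD1. The 2-week ratio rests in part on these spots and was not taken without them. With 1 section per condition, the difference between sections was not tested. After thinning to 1000 UMIs the values were 1.16, -0.18 and -0.25, and the intervals of the last 2 then reached across 0.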

How the results depend on the processing

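For 28 ratios of ANKRD1 and CSRP3, 100 alternative values stayed within the counting error of the reported one, 39 moved beyond it in the same direction and 7 turned direction. All ratios are log2. With mitochondrial genes left out, ANKRD1 against stored healthy muscle turned to -0.14 at 2 weeks and moved to -2.38 at 16 weeks, CSRP3 moved to -2.57 at 2 weeks and turned to -0.21 at 16 weeks, and the slow to fast ratio of ANKRD1 in stored muscle moved to -0.76. With the median gene set to 0, ANKRD1 against stored muscle was -0.39 at 2 weeks (turned), -2.95 at 16 weeks and 1.81 in fresh muscle, CSRP3 was -2.82 at 2 weeks and -0.78 at 16 weeks (turned), and from 2 to 16 weeks ANKRD1 was -2.58 and CSRP3 2.02. With thinned spots, ANKRD1 was 0.14 at 2 weeks and -2.51 at 16 weeks, CSRP3 -2.49 at 2 weeks, and from 2 to 16 weeks they were -2.65 and 2.59. Without the 5 leading spots, these 5 ratios were 0.15, -2.33, -2.64, -2.48 and 2.79.

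With slow-share groups weighted as in the second section, an alternative chosen after seeing the data, ANKRD1 was -0.27 at 2 weeks (turned), -1.55 at 16 weeks, 1.25 in fresh muscle and -0.95 from 2 to 16 weeks, and CSRP3 -0.22, -0.10 (turned), -0.78 and 1.0. With slow limits of 0.1 and 0.9, the slow to fast ratio of ANKRD1 was -0.84 in stored muscle, -2.77 at 16 weeks and -2.37 at 2 weeks (1 slow spot, interval -7.68 to 0.11), and that of CSRP3 2.82 in stored muscle. Among spots without MYH8, also added later, it was -2.33 for ANKRD1 at 16 weeks and 4.45 for CSRP3 at 2 weeks. With MYH8 spots set at 1 UMI, the ANKRD1 ratio was 0.17 in stored muscle, 0.91 at 2 weeks and 2.44 at 16 weeks, and that of CSRP3 in stored muscle 0.22. With 5 UMIs, ANKRD1 was 0.68, 1.31 and 4.48 in the same sections and 0.97 in fresh muscle, and CSRP3 in fresh muscle turned to -0.59 on 1 UMI. Without the leading spot, also added later, ANKRD1 at 16 weeks was 2.70. The cause of these shifts was not tested. No paired analysis was possible because each condition has 1 section and no test was run. Few spots, 14 slow ones in fresh muscle, 12 at 2 weeks and 6 with MYH8 in fresh muscle, limit the ratios that rest on them.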

Other observations

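ACTC1 and MYL4 are sarcomere genes of early muscle. ACTC1, the cardiac actin of developing and regenerating fibers, had log2 ratios to the stored healthy section of -3.55 in fresh muscle, -0.86 at 2 weeks and 1.82 at 16 weeks, beside CSRP3 at -1.77, -2.18 and 0.16 (the last turned under other scalings), and MYL4, the embryonic light chain, -5.65 (1 UMI in fresh muscle, interval -11.54 to -3.73), 1.42 and 3.26. Fresh muscle thus combined the highest ANKRD1 with the lowest ACTC1 and MYL4 of the 4 sections. Of 6 measured denervation and atrophy genes, 3 were at least 2-fold higher and 0 lower at 16 weeks, where 46.9% of all genes were higher, and GADD45A, a stress gene known from denervated muscle, was at 2.51 at 2 weeks and 2.56 at 16 weeks.

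Of 6 measured fast fiber genes, 6 were at least 2-fold lower at 16 than at 2 weeks, where 5.26% of all genes were, with a list median of -2.78 beside ANKRD1 at -2.26. Against stored healthy muscle 3 of the 6 were at 16 weeks, where 2.36% of all genes were, with a median of -1.04, beside ANKRD1 at -2.01.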
